A study of Mus musculus with 4 samples.

Results

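The enzymes that make prostaglandins and leukotrienes were followed in CD45+ leukocytes sorted from the spinal cord of mice. The set was fixed by gene symbol and held 10 genes (Ptgs1, Ptgs2, Hpgds, Ptgds, Ptges, Tbxas1, Alox5, Alox5ap, Lta4h and Ltc4s) of the 31053 genes in the count matrices, and all 10 had at least 1 UMI. The study dissociated cord segments, sorted CD45+ cells and counted RNA molecules per cell with 3′ droplet libraries, in which a unique molecular identifier (UMI) marks each captured molecule. Mice were adult C57BL/6J animals of both sexes. There were 4 libraries, 1 per condition. They came from sham cords with the standard dissociation, from sham cords with actinomycin D (ActD), from cords at 3 days post-injury (dpi) with ActD and from cords at 14 dpi with ActD. ActD blocks transcription, and it was present while the tissue was taken apart. Injury was a contusion of the thoracic cord, and sham mice had the laminectomy alone, although the labels call the sham cord healthy. The methods divide the mice at random among control, 3 dpi and 14 dpi groups but do not give the number behind each library, so no value has a spread between animals and no difference was tested.

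Both families start from arachidonic acid that phospholipases release from membranes. The cyclooxygenases, the constitutive COX-1 (Ptgs1) and the inducible COX-2 (Ptgs2), turn it into PGH2, from which terminal synthases make PGD2 (Hpgds, Ptgds), PGE2 (Ptges) or thromboxane A2 (Tbxas1). 5-lipoxygenase (Alox5), helped by its activating protein FLAP (Alox5ap), makes LTA4, which Lta4h turns into LTB4, a neutrophil attractant, and Ltc4s into LTC4, the parent of the cysteinyl leukotrienes.

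The libraries held 2439 to 11631 barcodes and 27447471 to 129935880 UMIs, and 2135 to 9078 cells per library were kept. Pairs of libraries shared 3 to 36 barcodes, at most 0.697% of the smaller library. Cell types were rebuilt from marker genes, so that each name below stands for cells that were X-like by their markers, and 1072 to 4250 microglia and 103 to 1831 neutrophils were found per library. At 3 dpi, UMIs of 9 macrophage marker genes (Arg1, Gpnmb, Fn1, Thbs1, Ms4a7, Lgals3, Fabp5, Spp1 and Vcan) summed to 6884 CPM (UMIs per 1000000 UMIs of a class) in T cells, 7859 CPM in B cells and 7327 CPM in NK cells, against 333 to 384 CPM at 14 dpi. The levels of the enzymes in these lymphocytes are given beside the others as a background. The matrix headers name software 3.0.1 in 2 libraries (standard sham, 3 dpi) and 3.1.0 in the other 2. ActD sham thus differs in version from standard sham and from 3 dpi, and 14 dpi differs from 3 dpi.

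In mm10 (GENCODE M21) the cyclooxygenase genes lie at chr2:36230426-36252272 (Ptgs1) and chr1:150100031-150108227 (Ptgs2). Their synthase partners lie at chr6:65117293-65144908 (Hpgds), chr2:25466709-25470046 (Ptgds), chr2:30889471-30929863 (Ptges) and chr6:38875404-39084585 (Tbxas1). The leukotriene genes lie at chr6:116410077-116461178 (Alox5), chr5:149264767-149288153 (Alox5ap), chr10:93453411-93484875 (Lta4h) and chr11:50236461-50238616 (Ltc4s). All 10 are protein coding.

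Promoters were read from RefSeq (GRCm38.p6), where 9 of the 10 genes had an entry and Alox5ap had none. Those of Ptgs1, Hpgds and Ltc4s are shown because these genes were high in microglia and share a motif, and that of Ptgs2 for its large differences between libraries. The choice was made after the motifs had been seen, and the promoter of Alox5 held none of the motifs searched. Alox5 and Alox5ap both had their highest level in neutrophils in each library. That of Tbxas1, also of the microglial set, held no GGAAGT, and only TATAAA among the motifs searched. Each window runs from 250 bases before to 30 bases after the start of the transcript, 5′ to 3′ on the strand of the gene. Ptgs1 lies at chr2:36230176-36230455 (plus strand), Hpgds at chr6:65144701-65144980 (minus strand), Ltc4s at chr11:50238503-50238782 (minus strand) and Ptgs2 at chr1:150099781-150100060 (plus strand). Capitals mark GGAAGT, the core that ETS factors bind, in Ptgs1, Hpgds and Ltc4s. In Ptgs2 they mark TTGCGCAA, a C/EBP palindrome, and a run in which ACGTCA, a cAMP response element core, overlaps CACGTG, an E-box.
Ptgs1: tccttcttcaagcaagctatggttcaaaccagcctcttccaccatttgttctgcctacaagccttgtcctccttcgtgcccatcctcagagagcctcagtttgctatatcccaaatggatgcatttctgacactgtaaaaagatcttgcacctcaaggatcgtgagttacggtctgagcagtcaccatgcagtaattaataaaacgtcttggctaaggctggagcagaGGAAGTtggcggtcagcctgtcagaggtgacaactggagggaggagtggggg
Hpgds: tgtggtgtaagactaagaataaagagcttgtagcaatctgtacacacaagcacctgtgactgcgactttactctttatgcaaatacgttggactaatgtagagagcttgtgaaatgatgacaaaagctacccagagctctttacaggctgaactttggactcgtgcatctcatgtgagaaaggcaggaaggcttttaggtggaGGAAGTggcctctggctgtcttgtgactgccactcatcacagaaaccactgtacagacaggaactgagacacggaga
Ltc4s: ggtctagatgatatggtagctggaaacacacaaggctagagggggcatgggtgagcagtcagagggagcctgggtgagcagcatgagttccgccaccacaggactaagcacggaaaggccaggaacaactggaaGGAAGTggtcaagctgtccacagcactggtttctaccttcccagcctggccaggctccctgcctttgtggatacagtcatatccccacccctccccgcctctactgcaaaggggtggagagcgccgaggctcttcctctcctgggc
Ptgs2: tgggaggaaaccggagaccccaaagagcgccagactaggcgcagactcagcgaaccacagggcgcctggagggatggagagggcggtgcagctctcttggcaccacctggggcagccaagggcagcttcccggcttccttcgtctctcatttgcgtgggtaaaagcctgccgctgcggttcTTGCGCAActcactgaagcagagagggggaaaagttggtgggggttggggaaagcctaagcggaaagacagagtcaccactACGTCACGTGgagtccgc
Both strands were searched, with letters chosen after the sequences had been read. GGAAGT was found in these 3 of the 9 promoters and in 22.3% of 32851 mouse promoters of the same length. The longer GAGGAAGT, which PU.1 prefers, stood in Ptgs1 and Hpgds and in 2.82% of all promoters. TTGCGCAA stood in Ptgs2 alone among the 9 and in 0.18% of all promoters. ACGTCA was found in 7.26%, CACGTG in 6.79% and TATAAA in 13.1% of all promoters. These are matches of letters, and binding was not measured.

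The classes carried different parts of the pathway. In the ActD sham library, the set of microglia was Ptgs1, Hpgds, Ltc4s, Alox5ap and Tbxas1, with Alox5 and Lta4h low and Ptgs2 at 1 UMI. Border macrophages of the meninges and vessels carried the same genes, with Ptgs1, Hpgds and Ltc4s lower than in microglia and Alox5ap and Alox5 higher. The interval of Tbxas1 overlapped that of microglia. Neutrophils carried Alox5, Alox5ap and Lta4h, the branch that leads to LTB4. Myeloid progenitors, which are marrow-type precursors with Elane, Mpo and Prtn3, carried Alox5ap and Lta4h, and all 32 of them in this library were of cluster 11. B cells held 0 to 11 UMIs of each of the 10 genes. Dendritic cells of the cDC2 type were found at 3 and 14 dpi, with Alox5ap, Tbxas1, Ltc4s and Hpgds. Plasmacytoid dendritic cells had 595, 618 and 615 CPM of Alox5ap (standard sham, 3 dpi and 14 dpi) and at most 27 UMIs of any other member in a library.

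**Figure D1:**
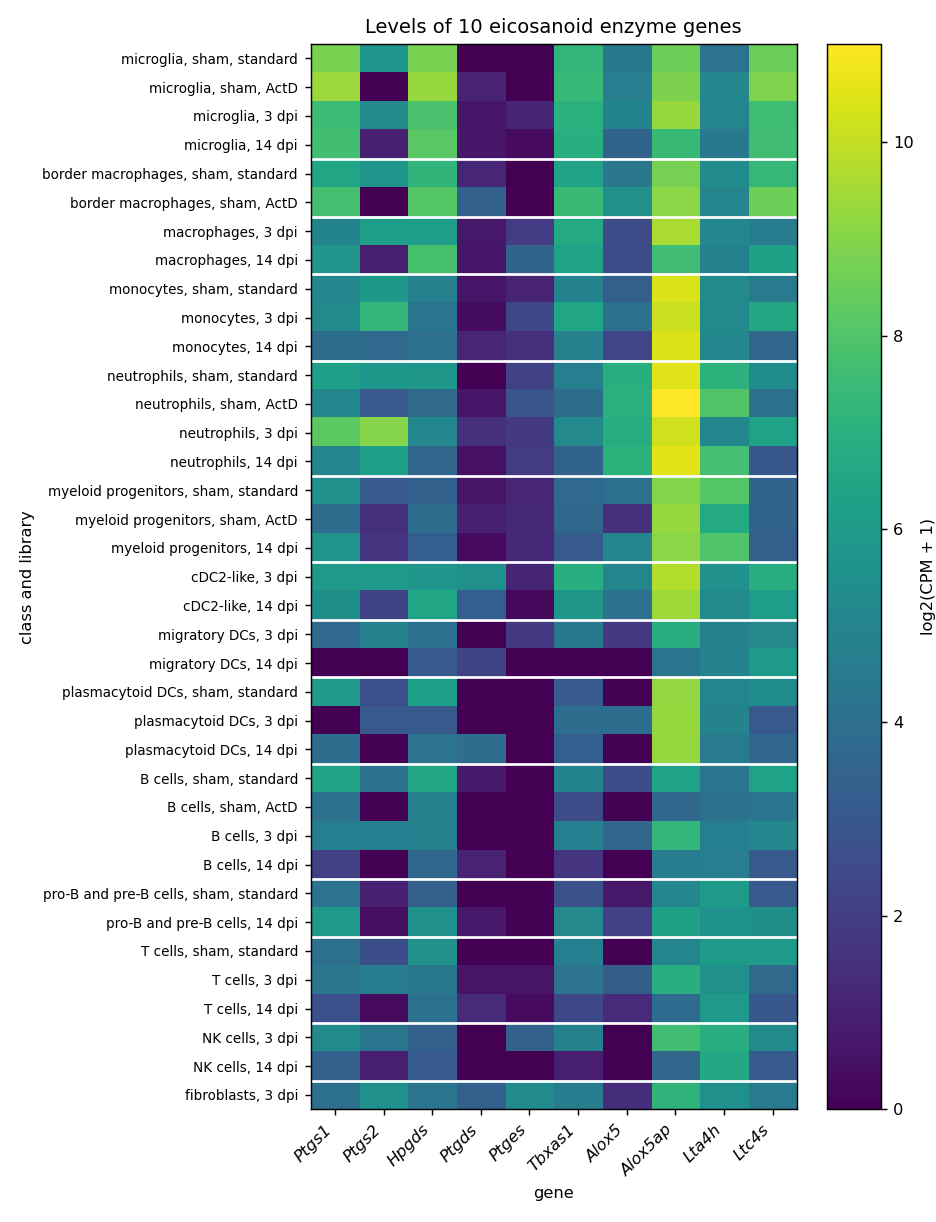
Levels of the 10 genes (columns) as log2(CPM + 1) in each class and library (rows), with brighter colours for higher levels. Ptgs1, Hpgds and Ltc4s are bright in microglia and border macrophages, Alox5 in neutrophils, and Alox5ap in the myeloid classes other than migratory dendritic cells (DCs). Migratory DCs have 120 CPM of Alox5ap at 3 dpi and 18.6 CPM at 14 dpi, near T cells (120 and 13.3 CPM).

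Microglia supplied most of the RNA for 4 of the genes in sham tissue. In the ActD sham library they held 95.5% of the UMIs of Ptgs1, 95.1% of Hpgds, 92.3% of Ltc4s and 89.2% of Tbxas1, while they held 70.4% of all UMIs. In the 3 dpi library they held 22.9% of all UMIs, and still 51.5%, 54.0%, 55.6% and 28.9% of the UMIs of these genes. Alox5 was spread over more classes, with 55.3% of its UMIs in microglia and 27.4% in neutrophils of the ActD sham library, although neutrophils held 6.62% of all UMIs there.

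Ptgs1, which encodes COX-1, had 446 CPM in microglia of the standard sham library (95% interval 437 to 455), 660 CPM in the ActD sham library (648 to 672), 184 CPM at 3 dpi (178 to 190) and 202 CPM at 14 dpi (198 to 206). All intervals are exact and cover counting error only, because no library was repeated. Both injured libraries lay below both sham libraries, at log2 ratios over ActD sham of -1.84 at 3 dpi and -1.71 at 14 dpi. With 1000 UMIs drawn per cell, the share of microglia with a Ptgs1 UMI was 35.8%, 48.8%, 15.1% and 19.0% (90.8%, 95.7%, 74.0% and 74.5% without drawing). T cells, which should lack the gene, had 1.59% at 3 dpi and 0.268% at 14 dpi (7.54% and 2.41% without drawing), at median depths of 3647 and 5152 UMIs against 17785 and 10667.5 in microglia.

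Neutrophils had 73.3, 34.6, 298 and 31.7 CPM of Ptgs1 in the same order of libraries. The 3 dpi value (282 to 314) was the highest of any class in that library and 8.61-fold that of ActD sham. T and B cells had 19.7 and 25.6 CPM there. It came with 25.2% of neutrophils with a Ptgs1 UMI among 1000 drawn UMIs, against 3.31% to 5.91% in the other libraries (44.3% against 14.5% to 30.1% without drawing). The clusters of neutrophils, described below, differed in Ptgs1. Over ActD sham, the log2 ratio at 3 dpi was 4.12 (2.89 to 5.74) in cluster 3, from 5 UMIs in ActD sham. In that cluster 62.4% of all genes were higher by 2-fold or more. In cluster 7 the log2 ratio of Ptgs1 was 0.66 (-0.22 to 1.46), from 17 and 54 UMIs, and 19.5% of all genes were higher. Border macrophages had 90.6 CPM with the standard dissociation and 220 CPM with ActD, and macrophages had 30.3 CPM at 3 dpi and 52.7 CPM at 14 dpi. Monocytes had 33.4 CPM (standard sham), 37.3 CPM (3 dpi) and 14.8 CPM (14 dpi). The monocyte level at 3 dpi stood little above that of the lymphocytes.

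Ptgs2, which encodes the inducible COX-2, differed most between libraries. In microglia it had 1137 UMIs (54.8 CPM, 51.6 to 58.0) with the standard dissociation and 1 UMI (0.0552 CPM) in 1702 microglia with ActD. The log2 ratio was 9.96 (7.47 to 15.26). Border macrophages had 81 UMIs (51.0 CPM) and 0 UMIs, at least 26.4-fold higher with the standard dissociation against a floor of 3 UMIs. Neutrophils had 57.5 and 7.62 CPM, a log2 ratio of 2.91 (2.11 to 3.85), and the 13 UMIs under ActD, 50% of the 26 UMIs of that library, stood in 5 of 103 neutrophils. In the ActD sham library, Ptgs2 was thus at 0 or 1 UMI in microglia and border macrophages and in few neutrophils.

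After injury, with ActD throughout, Ptgs2 had 36.4 CPM in microglia at 3 dpi and 1.01 CPM at 14 dpi (51 UMIs in 4250 cells). Macrophages had 70.9 CPM at 3 dpi and 0.879 CPM (3 UMIs) at 14 dpi, a log2 ratio of -6.34 (-8.61 to -4.79). Monocytes had 154 and 12.5 CPM, and neutrophils 518 CPM (498 to 540) and 73.6 CPM. Every one of these classes was lower at 14 dpi than at 3 dpi. Immediate early genes, whose counts are given below, were also higher at 3 dpi than in ActD sham in microglia and neutrophils. What part handling had in the Ptgs2 levels was not tested. T cells, at 24.7 CPM and 0.251 CPM, and B cells, at 25.6 CPM and 0 UMIs, gave the background.

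For microglia at 3 dpi, shares of cells and levels gave different pictures. With 1000 drawn UMIs per cell, 2.89% of microglia, 2.98% of T cells and 2.29% of B cells of the 3 dpi library had a Ptgs2 UMI, so the share in microglia lay between those of the lymphocytes (33.3%, 8.73% and 6.87% without drawing, at median depths of 17785, 3647 and 2504 UMIs). The level of 36.4 CPM (33.9 to 39.0) lay above the interval of T cells (18.3 to 32.6), and 1 microglial cell held 17 Ptgs2 UMIs, while T cells held at most 2. The part of free RNA in the microglial UMIs was not tested. The shares were 6.61% in macrophages, 10.5% in monocytes and 30.3% in neutrophils, above the lymphocytes (43.2%, 41.2% and 46.2% without drawing). In the standard sham library, 3.64% of microglia and 0.847% of B cells had a Ptgs2 UMI (15.8% and 2.20% without drawing, at median depths of 7628 and 3822 UMIs), and in the ActD sham library 0.0591% of microglia did (0.0588% without drawing). These B cells held 42 Ptgs2 UMIs, of which 2 remained in 523 cells without a cluster that carried microglial markers, described below.

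**Figure D2:**
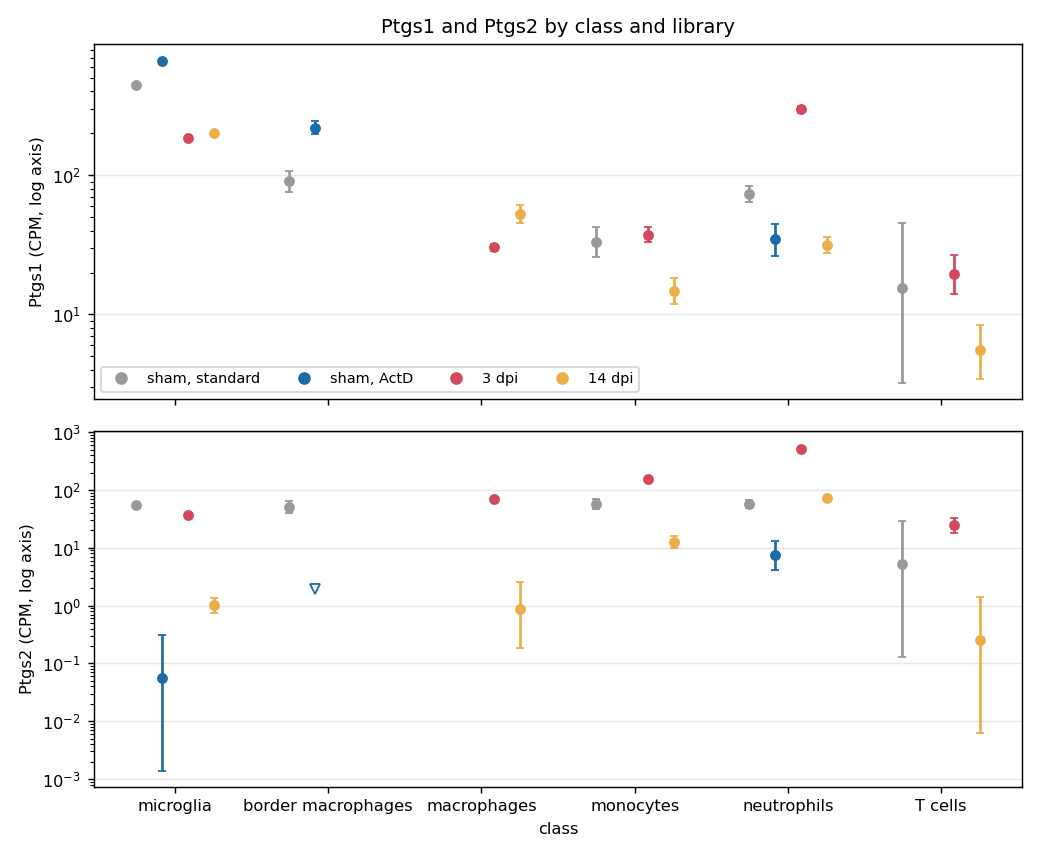
Ptgs1 and Ptgs2 in CPM (log axis) in 6 classes, with 1 point per library and bars for exact 95% Poisson intervals. Open triangles mark 0 UMIs, drawn at the floor of 3 UMIs. Ptgs1 of microglia is lower in both injured libraries than in both sham libraries, and Ptgs2 of microglia runs from 0.0552 CPM with ActD to 54.8 CPM with the standard dissociation.

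The PGD2 synthase of hematopoietic cells, Hpgds, had 449, 627, 227 and 291 CPM in microglia (standard sham, ActD sham, 3 dpi and 14 dpi). It followed the same order as Ptgs1 in this class, with log2 ratios over ActD sham of -1.47 at 3 dpi and -1.11 at 14 dpi. Border macrophages had 148 CPM and 272 CPM in the 2 sham libraries. Macrophages had 69.3 CPM at 3 dpi (67.0 to 71.7) and 222 CPM at 14 dpi (207 to 239), a log2 ratio of 1.68. The microglial markers summed to 930 CPM in the macrophages at 3 dpi and 5282 CPM at 14 dpi, and their part in this difference was not tested. In cDC2-like cells, Hpgds had 52.4 and 90.1 CPM at 3 and 14 dpi.

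Ptgds, the lipocalin-type PGD2 synthase known from meninges and glia, was at most 14.4 CPM in all classes but 1. In cDC2-like cells at 3 dpi it had 45.4 CPM, but 368 of its 376 UMIs stood in 1 cell. At 14 dpi, 28 of the 45 UMIs of this class stood in 1 cell. These levels describe single cells and not the class. In microglia Ptgds had 1 UMI in the standard sham and 20 UMIs in the ActD sham library, where 60% of the UMIs stood in 5 cells.

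Ptges, the inducible PGE2 synthase, was sparse in immune cells. Fibroblasts of the 3 dpi library had 38.8 CPM (28.3 to 51.9), from 45 UMIs in 9 of 49 cells. Among the other classes it was at most 10.3 CPM, the level of macrophages at 14 dpi, where all 35 UMIs stood in 5 of 216 cells and 23 of them in 1 cell. Macrophages at 3 dpi had 2.75 CPM from 132 UMIs in 118 cells. Microglia had 1, 0, 26 and 13 UMIs in the 4 libraries, which was at least 7.16-fold higher at 3 dpi than in ActD sham against the floor of 3 UMIs, at a level of 1.19 CPM. The 26 UMIs stood in 26 cells. The level lay below the 2.75 CPM of the whole 3 dpi library, and its interval overlapped that of T cells (0.504 CPM, 1 UMI). The part of free RNA in it was not tested.

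Tbxas1, the thromboxane A2 synthase, varied least among the prostanoid genes of microglia. It had 149, 165, 131 and 120 CPM in the 4 libraries, with intervals from 117 to 171 CPM. Its log2 ratios over ActD sham were -0.34 at 3 dpi and -0.46 at 14 dpi, nearer to 0 than the median over all well counted genes (200 or more UMIs), which was -0.53 at both times. Macrophages had 105 and 79.7 CPM, cDC2-like cells 119 and 56.2 CPM, and monocytes 91.8 and 26.4 CPM at 3 and 14 dpi. T cells had 17.1 and 4.26 CPM.

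Alox5, the 5-lipoxygenase, marked neutrophils in every library, with 120 CPM (108 to 132), 132 CPM (115 to 150), 116 CPM (106 to 126) and 133 CPM (125 to 141). The intervals of all 4 libraries overlapped. Microglia had 21.1, 25, 30.2 and 10.3 CPM, border macrophages 19.5 and 46.3 CPM, and macrophages 4.94 and 4.98 CPM at 3 and 14 dpi. The low value of macrophages stood beside a high RNA level of its partner gene at 3 dpi. T cells had 8.57 CPM at 3 dpi and 1.5 CPM at 14 dpi, so the macrophage level at 3 dpi was not above background.

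Alox5ap, which encodes FLAP, had the most UMIs of the set in each library, 14891 to 73694. Neutrophils had 1420.2, 2068, 1197 and 1497 CPM and monocytes 1342 (standard sham), 1118 (3 dpi) and 1326 CPM (14 dpi). Macrophages had 782 CPM at 3 dpi (774 to 790) and 195 CPM at 14 dpi (181 to 211). Microglia had 382, 457, 640 and 169 CPM. The order of the libraries in microglia, with 3 dpi highest, was thus not that of Ptgs1, Hpgds and Ltc4s. T, B and NK cells had 120, 157 and 195 CPM at 3 dpi and 13.3, 24.1 and 11.5 CPM at 14 dpi, and the microglia at 3 dpi had 28174 CPM of the 9 macrophage markers against 71.7 CPM in ActD sham. The part of this RNA in the microglial level was not tested.

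Lta4h, the LTB4-forming hydrolase, was highest in myeloid progenitors (266, 105 and 255 CPM in standard sham, ActD sham and 14 dpi) and neutrophils (135, 257 and 208 CPM) in these 3 libraries. At 3 dpi neutrophils had 33.6 CPM and ranked 6 of 11 classes, below NK cells, cDC2-like cells, fibroblasts, T cells and monocytes, although the intervals of neighbours overlapped except that of NK cells. NK cells had 121 CPM (13 UMIs) and 98.2 CPM, and T cells 44.8 and 59.2 CPM, at 3 and 14 dpi. Lta4h is a broadly used peptidase too, and lymphocytes that had little else of the set carried it. Microglia had 17.1, 32.9, 32.1 and 20.6 CPM.

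Ltc4s, the LTC4 synthase, was highest in microglia in each library, with 370, 468, 190 and 196 CPM. Border macrophages had 160 and 382 CPM. Macrophages had 23.6 CPM at 3 dpi and 76.1 CPM at 14 dpi, a log2 ratio of 1.69 (1.49 to 1.88), while monocytes had 98.2 and 11.6 CPM, a log2 ratio of -3.08 (-3.47 to -2.71). Neutrophils had 39.8, 15.8, 80.5 and 6.88 CPM. The microglial markers in the macrophages, given above for Hpgds, moved in the same direction, and their part was not tested. B and NK cells had 34.2 and 37.2 CPM of Ltc4s at 3 dpi, so the macrophage level there was not above background. Several classes carried both genes, among them cDC2-like cells (115 CPM of Ltc4s and 46.7 CPM of Lta4h) and monocytes (98.2 and 37.6 CPM) at 3 dpi. Neutrophils of the standard sham library had 135 CPM of Lta4h. Their 39.8 CPM of Ltc4s lay below B cells (83.1 CPM) and T cells (67.3 CPM) of that library. Without a cluster of 67 B cells that carried microglial markers, described below, the B cells had 10.8 CPM, below the neutrophils. The T cell value came from 13 UMIs in 28 cells, with 7 UMIs in 1 cell.

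**Figure D3:**
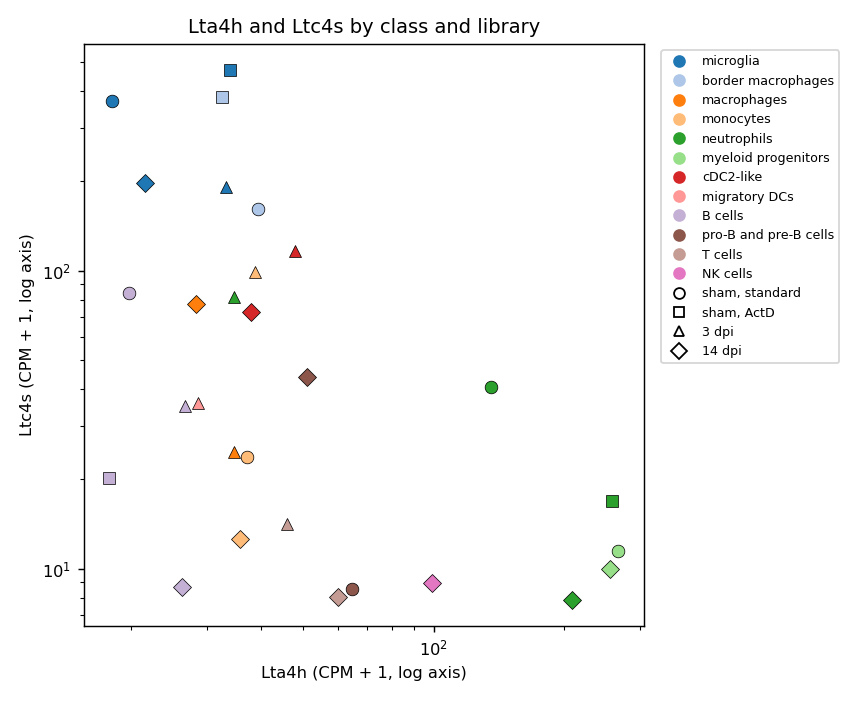
Lta4h (x axis) against Ltc4s (y axis), both as CPM + 1 on log axes, with 1 point per class of at least 50 cells and library. Microglia lie high on the Ltc4s axis at 190 to 468 CPM, and neutrophils of 3 libraries and myeloid progenitors lie far out on the Lta4h axis.

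The dissociation comparison set the standard sham library beside the ActD sham library. With 1 library each and different software versions, an effect of the dissociation cannot be told apart from other differences between them. In microglia, 1 of the 9 members with at least 20 UMIs in the pair was higher by 2-fold or more with the standard dissociation (Ptgs2), where 6.29% of all genes tested were, and 1 was lower (Ptgds, from 1 and 20 UMIs), where 24.7% were. The other 7 members had log2 ratios from -0.94 (Lta4h) to -0.15 (Tbxas1), around the median of all genes of -0.54. After TMM scaling, which moves that median towards 0, the ratio of Ptgs1 was -0.03 and that of Hpgds 0.06. A list of 20 immediate early genes, which respond to handling, was higher by 2-fold or more in 20 of 20, in the direction of Ptgs2. At 3 dpi over ActD sham, both with ActD, 18 of 20 were higher in microglia (13.6% of all genes) and 20 of 20 in neutrophils (52.6%). Between 3 and 14 dpi, 19 of 20 were lower at 14 dpi in microglia (15.7% of all genes).

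In border macrophages, 1 of 8 members was higher (Ptgs2; 8.98% of all genes) and 4 were lower with the standard dissociation (15.9% of all genes). The 4 were Ptgs1 at a log2 ratio of -1.28, Ltc4s and Alox5 at -1.25 and Tbxas1 at -1.11. After TMM scaling Ptgs1 was the only one of the 4 past the fold, at -1.02, while Ltc4s and Alox5 lay just inside and Tbxas1 at -0.85. The microglial markers summed to 1321 CPM in these cells with the standard dissociation and 4046 CPM with ActD, in the same direction, and their part was not tested.

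In neutrophils, 4 of 9 members were higher with the standard dissociation (16.1% of all genes) and 0 lower (8.27%). They were Ptgs2, Hpgds (55.7 and 12.9 CPM, log2 ratio 2.11), Ltc4s (39.8 and 15.8 CPM, 1.33) and Ptgs1 (73.3 and 34.6 CPM, 1.08). Hpgds, Ltc4s and Ptgs1 are the leading members of microglia, and the microglial markers in neutrophils summed to 1291 CPM with the standard dissociation and 835 CPM with ActD. With more doublets removed, these 3 lay at 0.98, 0.51 and 0.43 and Ptgs2 alone stayed past the fold.

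B cells showed 6 of 7 members higher with the standard dissociation (14.9% of all genes) and 0 lower (8.97%), with Ptgs1 at 86.0 and 16.8 CPM and Hpgds at 91.8 and 26.4 CPM. These differences stood in 1 cluster of 67 B cells of the standard library, in which the microglial markers summed to 9241 CPM against 364 CPM in the other 523 B cells. Without that cluster 0 of 5 members passed the fold, while 799 of 7846 genes were higher and 660 lower, and Ptgs1 had 12.7 and 16.8 CPM.

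**Figure D4:**
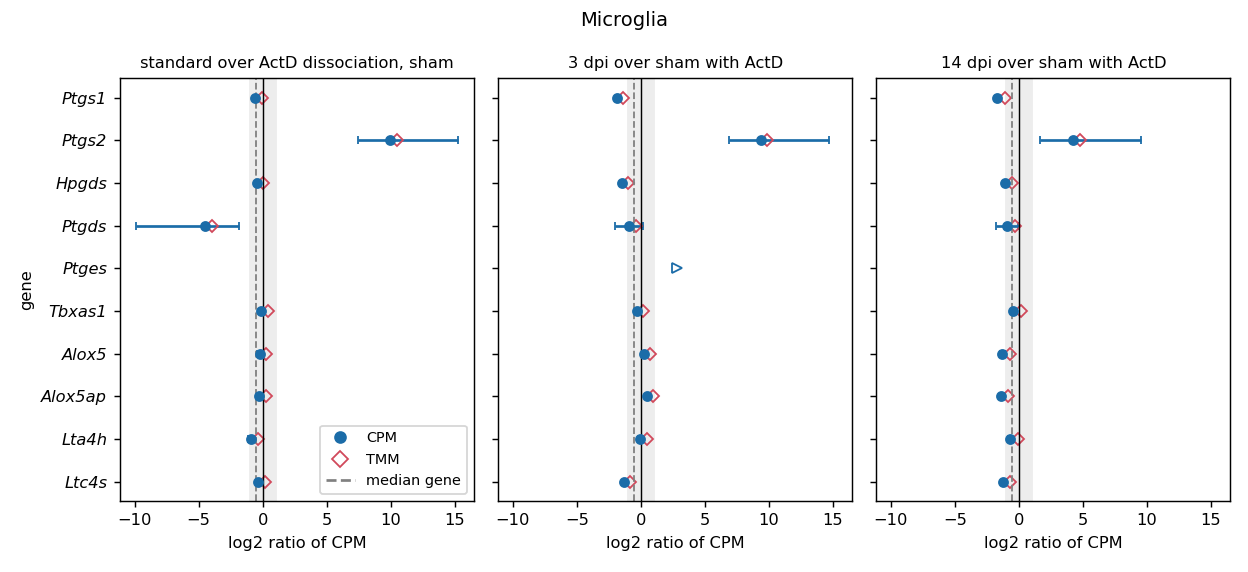
Log2 ratios of CPM in microglia for the members with at least 20 UMIs in the pair (circles, with exact 95% intervals), in 3 comparisons. Diamonds give the ratio after TMM scaling, the dashed line the median of all genes, the grey band less than 2-fold, and the open triangle the lower bound for Ptges. Ptgs2 lies far to the right with the standard dissociation and at 3 dpi, and Ptgs1, Hpgds and Ltc4s lie to the left after injury.

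The injury comparison asked how the enzyme set of each class differed at 3 and 14 dpi from ActD sham. In microglia at 3 dpi, 2 of 10 members were higher by 2-fold or more (13.6% of all genes) and 3 were lower (Ptgs1, Hpgds and Ltc4s, with 32.8% of all genes). The higher members were Ptgs2, whose share of cells lay near that of lymphocytes, and Ptges, at a level below that of the whole library. At 14 dpi, 1 of 9 was higher (Ptgs2, from 51 UMIs and 1 UMI; 5.26% of all genes) and 5 were lower (Ptgs1, Hpgds, Ltc4s, Alox5 and Alox5ap; 21% of all genes). Of the 51 Ptgs2 UMIs, 15 stood in 1 cell and 47.1% in the 5 highest of 4250 cells. After TMM scaling Ptgs1 remained past the fold at -1.36 and -1.11, and Hpgds lay at -0.98 and -0.51 and Ltc4s at -0.82 and -0.66. The share of lower members was thus near that of all genes at 3 dpi, and Ptgs1 was the member that stayed lower by 2-fold at both times under both scalings.

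The shares of microglia in clusters 0 and 1 differed between sham and injured cords. Cluster 0, led by Tmem119, P2ry12 and Olfml3 in ActD sham, held 82.0% of microglia there, 18.4% at 3 dpi and 28.7% at 14 dpi, and cluster 1, led by Lpl and Spp1 in ActD sham, held 6.05%, 36.4% and 61.5%. Within cluster 0, Ptgs1 had 707, 273 and 383 CPM, and within cluster 1 it had 435, 152 and 149 CPM. It was lower in both injured libraries than in ActD sham in each of these clusters. Microglia of other clusters, a large part of the class at 3 dpi, are not covered by these values. At 14 dpi, 0 of 8 members passed the fold within cluster 0, where Ptgs1 had a log2 ratio of -0.88 (-0.94 to -0.83) and 2.86% of all genes were higher and 8.25% lower. Within cluster 1, 3 of 9 were lower, where 6.97% of all genes were higher and 12.95% lower.

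In neutrophils at 3 dpi, 5 of 9 members were higher than in ActD sham, near the 52.6% of all genes. The 2 lower members were Lta4h and Ptges (12 and 11 UMIs), where 7.1% of all genes were lower. Ptgs2 led at a log2 ratio of 6.09 (5.31 to 7.0), before Ptgs1 at 3.11, Ltc4s at 2.35, Hpgds at 1.41 and Tbxas1 at 1.32. The interval of Hpgds (34.2 CPM) overlapped that of B cells (28.5 CPM) at 3 dpi. That of Tbxas1 (35.1 CPM) overlapped that of NK cells (27.9 CPM), while T cells had 20.2 CPM of Hpgds and 17.1 CPM of Tbxas1. After TMM scaling, Ptgs2 (5.23), Ptgs1 (2.25) and Ltc4s (1.49) were past the fold upwards and Lta4h (-3.79), Ptges (-2.13), Alox5ap (-1.64) and Alox5 (-1.04) downwards. At 14 dpi, 1 of 9 was higher (Ptgs2 at 3.27; 7.23% of all genes) and 2 lower (Ptges, from 21 and 11 UMIs, and Ltc4s; 5.64% of all genes).

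The neutrophils of the 3 dpi library were unlike the others. Their median was 2288 UMIs against 5052 to 13650 elsewhere, and cluster 3, led by Hdc, S100a9 and G0s2, held 97.9% of them against 25.2% to 44.6%. The 9 neutrophil markers summed to 42644 CPM in this cluster at 3 dpi and to 233619 to 406875 CPM in all other neutrophil clusters. The 9 macrophage markers summed to 10265 CPM in neutrophils at 3 dpi against 1303 CPM in ActD sham, and their part in the levels of the enzymes was not tested.

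The clusters themselves differed in Lta4h. Cluster 7, led by Retnlg, Mmp8 and Ly6g in ActD sham, had 159, 304, 66.5 and 262 CPM of Lta4h, and cluster 3 had 11.3, 14.5, 31.3 and 12.6 CPM. Within cluster 3, the log2 ratio of 3 dpi over ActD sham was 1.11 (-0.28 to 3.01), from 132 and 4 UMIs, instead of -2.94 over all neutrophils. There 62.4% of all genes were higher by 2-fold or more, and the ratio was 0.41 after TMM scaling. Within cluster 7 the log2 ratio of Lta4h was -2.19 (-2.94 to -1.53), from 19 and 434 UMIs. There 14.6% of all genes were lower, and the ratio was -2.64 after TMM scaling. The lower class value thus came together with different shares of the clusters. Ptgs2 was higher in cluster 3 (143, 36.2, 545 and 306 CPM) than in cluster 7 (41.0, 2.10, 126 and 9.27 CPM) in each library. Within each cluster Ptgs2 was also higher at 3 dpi than in ActD sham.

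The class named myeloid progenitors held a pair of unlike clusters. Cluster 15, led by Elane, Fcnb, Cebpe and Camp, the last a granule gene of maturing neutrophils, had 493 and 436 CPM of Lta4h in standard sham and at 14 dpi, against 203 and 147 CPM in cluster 11, led by Elane, Mpo and Prtn3. The 9 neutrophil markers summed to 208601 and 288586 CPM in cluster 15, below and within the 233619 to 406875 CPM of neutrophils outside cluster 3 at 3 dpi, and to 5743 and 3102 CPM in cluster 11, so the name progenitor rests on Elane, Prtn3, Ms4a3 and Cebpe in a cluster that carried neutrophil genes as well. Alox5 had 62.3 and 79.2 CPM against 2.37 and 3.25 CPM, and Ptgs1 122 and 98.6 CPM against 26.0 and 23.3 CPM. The ActD sham library had 32 progenitors, all of cluster 11, so the 4 of 8 members higher with the standard dissociation (8.95% of all genes, with 8.78% lower) and the 3 of 9 higher at 14 dpi (7.21%, with 6.9% lower) set different clusters side by side.

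**Figure D5:**
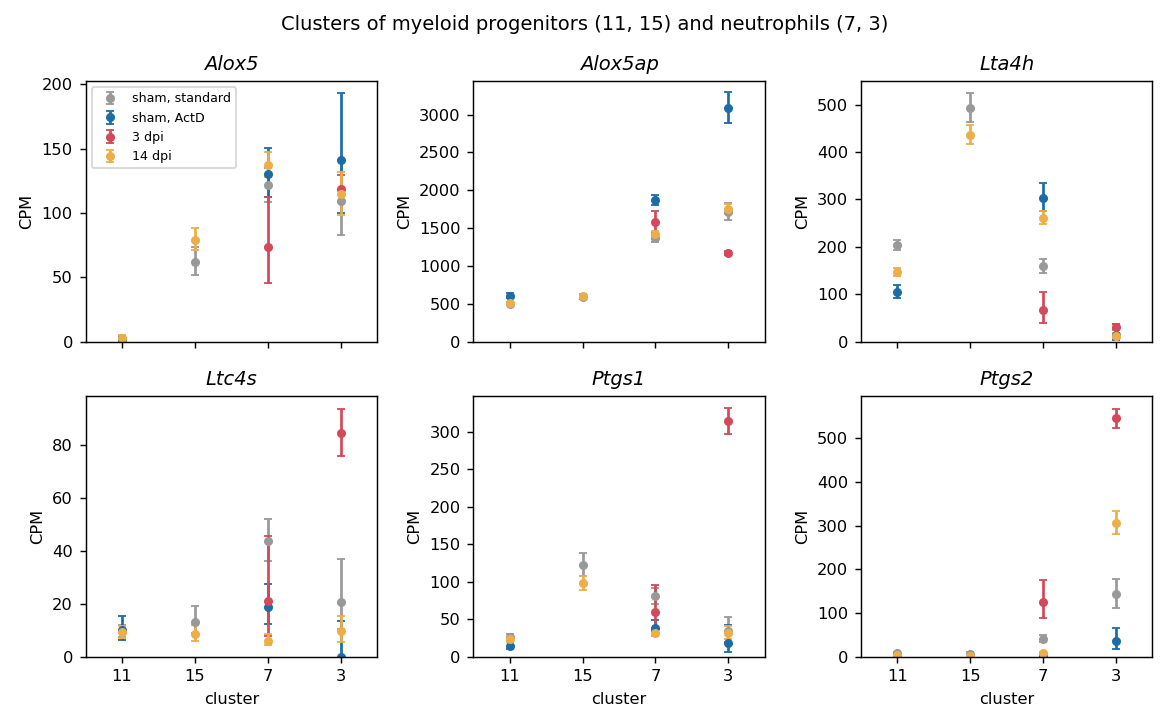
CPM of 6 genes in 2 progenitor clusters (11 and 15) and 2 neutrophil clusters (7 and 3), with 1 point per library and bars for exact 95% Poisson intervals. Lta4h is at 436 and 493 CPM in cluster 15 and at 11.3 to 31.3 CPM in cluster 3, and Ptgs2 is highest in cluster 3.

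Between the injured libraries, microglia had 4 of 10 members lower at 14 dpi than at 3 dpi (15.7% of all genes) and 0 higher (11.6%). The 4 were Ptgs2, Ptges, Alox5ap at a log2 ratio of -1.92 and Alox5 at -1.56, while Ptgs1 (0.14), Hpgds (0.36) and Ltc4s (0.05) lay near 0. Neutrophils had 5 of 9 lower (55.6% of all genes) and Lta4h alone higher, at 2.63 (5.89%). Within cluster 3, which held 97.9% of the neutrophils at 3 dpi, Lta4h turned to -1.32 (-2.05 to -0.64), where 48.3% of all genes were lower. After TMM scaling it was -0.55 there. Within cluster 7 the log2 ratio of Lta4h was 1.98 (1.33 to 2.71), where 11.7% of all genes were higher. Macrophages could be compared between 3 and 14 dpi only, with 2679 and 216 cells. At 14 dpi, 3 of 10 members were higher (15.8% of all genes), namely Ptges, Ltc4s and Hpgds, and 2 were lower (12.1% of all genes), namely Ptgs2 and Alox5ap. All 35 Ptges UMIs at 14 dpi stood in 5 of the 216 cells. The macrophages carried 59523 CPM of the macrophage markers at 3 dpi and 15518 CPM at 14 dpi. With each library clustered alone, the class highest in Ptges at 14 dpi was named border macrophages instead of macrophages. Border macrophages of the ActD sham library had 272 CPM of Hpgds and 382 CPM of Ltc4s. Whether the same kind of macrophage was compared at both times was not tested. In monocytes, 6 of 9 were lower at 14 dpi (10% of all genes), with Alox5 at 15.8 and 3.92 CPM and Tbxas1 at 91.8 and 26.4 CPM besides Ptgs2, Ltc4s, Ptgs1 and Ptges, and 0 were higher (17.7%). Alox5 also went from 8.57 to 1.5 CPM in T cells and from 11.4 CPM to 0 UMIs in B cells. Alox5ap of monocytes had a log2 ratio of 0.25. In cDC2-like cells, 3 of 9 were lower (6.79% of all genes) and 0 higher (9.33%), Ptgs2 at 67.2 and 3.85 CPM, Tbxas1 at 119 and 56.2 CPM and Ptgds. Of the Ptgds UMIs at 3 dpi, 368 of 376 stood in 1 cell, so its ratio does not describe the class. T cells had 5 of 8 members lower at 14 dpi (6.42% of all genes) and 0 higher (7.48%), and their 9 macrophage markers went from 6884 to 349 CPM.

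Other genes of the pathway, 48 in all, were grouped by role. In microglia at 3 dpi, where 13.6% of all genes were higher and 32.8% lower, 5 of 8 other synthases and lipoxygenases tested were higher and 0 lower, and 2 of 3 prostanoid receptors were higher and 0 lower. There 5 of 8 phospholipase and arachidonate supply genes tested were lower and 2 higher, among them the monoacylglycerol lipase Mgll (5.65 and 49.8 CPM, log2 ratio -3.14), and Pla2g7, the secreted PAF hydrolase (66.0 and 0.552 CPM, 6.90). Of 9 genes of inactivation and transport, 3 were higher and 2 lower, with Hpgd, which inactivates prostaglandins, at 79.2 CPM and 707 CPM (-3.16). Of 4 leukotriene and lipoxin receptors tested, 2 were higher and 1 lower, with Ltb4r1, the LTB4 receptor, at 10.3 and 0.772 CPM (3.74). At 14 dpi Pla2g7 had 28.6 CPM (5.70) and the PGE2 receptor Ptger4 23.9 against 3.20 CPM (2.90).

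With the standard dissociation, Ptger4 of microglia had 49.7 CPM against 3.20 CPM with ActD (3.96), the 1 of 3 prostanoid receptors tested that passed the fold. Hpgd had 283 and 707 CPM (-1.32) and Cysltr1, a receptor for cysteinyl leukotrienes, 64.0 and 149 CPM (-1.22). In border macrophages Ptger4 had 123 and 12.9 CPM (3.26). In neutrophils at 3 dpi, Mgst2, another LTC4-forming enzyme, had 8.45 CPM against 199 CPM in ActD sham (-4.56), and Dpep2, a dipeptidase that converts LTD4, had 133 and 4.69 CPM (4.83). The cluster shares and macrophage markers of these neutrophils also differed from ActD sham, as given above, and their part was not tested. In macrophages at 14 dpi, a class whose name depended on the clustering, Hpgd had 90.8 CPM against 4.69 CPM at 3 dpi (4.27). The microglial markers in the macrophages, given above for Hpgds, moved in the same direction, and their part was not tested.

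Genes with the most similar pattern were sought among 12090 genes over 29 points, 1 per class of at least 50 cells and library, with Pearson's r of log2(CPM + 1). Points of a library share its depth and free RNA, so r is a description. Ptgs2 was nearest to Ier3 (0.95), Cxcl2 (0.94) and Il1b (0.92), and Ptgs1 to Usp2 (0.91), P2ry13 (0.87) and Zfhx3 (0.87). Hpgds was nearest to Scamp5 (0.98), C1qc (0.97) and C1qa (0.97), and Ltc4s to Scamp5 (0.94). Alox5 was nearest to Siglece (0.93), Alox5ap to Igsf6 (0.94), Tbxas1 to Slc7a8 (0.95) and Lta4h to Tuba8 (0.91). Among the members, Hpgds and Ltc4s were the closest pair (0.91), followed by Ltc4s and Tbxas1 (0.88), and Ptgs1 and Ptgs2 had an r of 0.21.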

How the data were processed

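Single-cell RNA was measured in 4 libraries, 1 per condition, grouped by their labels. The authors deposited whole-number UMI counts per gene and barcode as filtered matrices. The submitters' processing notes name Cell Ranger and mm10, and their design text says Drop-Seq while the matrix headers name 10x software. From these counts, barcodes under 600 genes or over 10% mitochondrial UMIs were left out, cells with Itgam and lymphoid marker UMIs were removed, and the cells with the highest Scrublet scores, 0.8% per 1000 barcodes, were removed as doublets (1.93% to 9.30% of cells). All 4 libraries were integrated with Seurat 5.3.0 (2000 features without the pathway genes, 50 dimensions, resolution 0.6), and scanpy 1.11.5 served for alternatives. A cluster was named in a library from at least 20 cells and at least 3 markers in at least 25% of its cells, limits set after the clusters had been seen.

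Counts were summed per class and library. With 1 library per condition no test was run. A member was counted as higher or lower past a 2-fold ratio of CPM with at least 20 UMIs in the pair, and percentages of all genes use the same rule. CPM have exact Poisson, ratios exact conditional and shares exact binomial (Clopper-Pearson) 95% intervals. A class with 0 UMIs was set to a floor of 3 UMIs. Shares of cells were taken after 1000 UMIs had been drawn per cell. The counting was tested on simulated data. The members and gene lists were chosen with earlier results of these data known. Pathway genes were named from the at most 8 with the largest ratios past the fold in each comparison, and the 3 genes most similar to a member by correlation. Alternatives were TMM scaling, other folds and UMI minimums, stricter cell filters, more doublets removed, other resolutions, no integration, each library alone and single clusters.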

Additional observations from a re-analysis of the deposited data

Results flagged for a closer look

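The following pairs of classes lay past 2-fold in opposite directions under the same comparison. The difference between them was not tested in any case, since each condition had 1 library. Ltc4s at 14 dpi over 3 dpi had a log2 ratio of 1.69 in macrophages, -3.08 in monocytes and -3.55 in neutrophils. The macrophages held 930 CPM of the microglial markers at 3 dpi and 5282 CPM at 14 dpi, and their 23.6 CPM of Ltc4s at 3 dpi lay below B cells (34.2 CPM) and NK cells (37.2 CPM). Ptges at 14 dpi over 3 dpi had 1.90 in macrophages, where all 35 UMIs at 14 dpi stood in 5 cells, -2.20 in microglia and -1.23 in monocytes. Ptgs1 at 3 dpi over ActD sham had -1.84 in microglia and 3.11 in neutrophils, but 0.66 (-0.22 to 1.46) within neutrophil cluster 7. At 14 dpi it had -1.71 in microglia and 1.84 in myeloid progenitors. The ActD sham library had 32 progenitors, all of cluster 11, so that value set different clusters side by side. Ptgs1 with the standard dissociation over ActD had -1.28 in border macrophages, 1.08 in neutrophils, 1.70 in myeloid progenitors and 2.35 in B cells. The B-cell value was -0.40 (-1.64 to 1.05) without the B-cell cluster that carried microglial markers. The neutrophil value lay inside 2-fold with more doublets removed, and the progenitor value again set different clusters side by side.

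Levels also stood out in cells that received no class name and entered no comparison. In the standard sham library, 300 cells of cluster 10, led by Adamts1, Mertk and Csmd3, with a median of 1692.5 UMIs, had 564 CPM of Ptgs1, 1092 CPM of Hpgds and 252 CPM of Tbxas1, all above the microglia of that library. In the ActD sham library, 29 cells of cluster 20, led by Vtn and Rgs5, genes of vessel walls, had 801 CPM of Ptgds.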

How the results depend on the processing

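Of 115 counts under alternatives, 85 stayed within 1.5 times and 30 did not, and the causes were not tested. Standard over ActD microglia had 1 member past the fold instead of 2 with a minimum of 100 UMIs, resolution 1.2, the stricter filter, more doublets removed or cluster 0 alone. Microglia at 3 dpi had 3 instead of 5 with TMM, 2 at a fold of 4 and 3 in cluster 0. At 14 dpi they had 2 instead of 6 with TMM, 1 at a fold of 4, 3 with libraries clustered alone, 0 in cluster 0 and 3 in cluster 1. Standard over ActD neutrophils had 7 instead of 4 at a fold of 1.5, 2 at 4, 1 with more doublets removed and 1 in cluster 3. Neutrophils at 3 dpi had 4 instead of 7 at a fold of 4 and 3 in cluster 7; at 14 dpi they had 1 instead of 3 with a minimum of 100 UMIs, a fold of 4 or merged libraries. Macrophages had 2 instead of 5 at a fold of 4. Border macrophages had 2 instead of 5 with TMM, libraries alone, merged libraries or resolution 1.2, and 1 at a fold of 4. Without thinning, 187 shares instead of 62 reached 10%.

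Lta4h of neutrophils changed sign within cluster 3. It was 1.11 (-0.28 to 3.01) at 3 dpi over ActD sham, where 62.4% of all genes were higher. It was -1.32 at 14 dpi over 3 dpi, where 48.3% of all genes were lower. After TMM scaling the 2 values were 0.41 and -0.55, inside the fold. B cells had 0 instead of 6 without cluster 23, and Ptgs1 (-0.40), Hpgds (-0.89), Ltc4s (-0.83) and Tbxas1 (-0.71) reversed. The settings on single clusters and on cluster 23 were chosen after seeing the data. Macrophages gave no value with libraries clustered alone or merged. No paired analysis was possible because each condition had 1 library.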

Other observations

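Mast cells and basophils, textbook producers of leukotrienes and PGD2, formed no named class. Cells with at least 4 of 11 of their markers, a gate chosen after the clusters had been seen, numbered 29 in the standard sham, 4 in the ActD sham, 1 in the 3 dpi and 30 in the 14 dpi library. In the standard sham and 14 dpi libraries they had 157 CPM (124 to 196) and 258 CPM (201 to 326) of Alox5, and 719.8 and 1087 CPM of Alox5ap. Alox5 in the gated cells was thus above neutrophils of the same library at 14 dpi (133 CPM), and its interval overlapped theirs in the standard sham library. Hpgds had 8 and 4 UMIs and Ltc4s 13 and 2 UMIs in these cells. Ptgs2 had 104.6 CPM in the standard sham and 33.2 CPM in the 14 dpi library.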
